A study of Mus musculus with 2 samples.

Results

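The 34 genes described here encode the proteins with which rod and cone photoreceptors turn light into an electrical signal and then reset themselves. They were taken by symbol from a list and make up 34 of the 31053 genes in the count tables, and all 34 symbols were found. As grouped here by photoreceptor, 9 are rod forms, 11 are cone forms and 14 are used by both. Their unique molecular identifier (UMI) counts were followed in a pair of droplet single-cell libraries of mouse retina, in rods and cones and as RNA found in other cells. Both libraries came from wild-type C57BL/6 mice at postnatal day 17, and each pooled retinas of 6 mice, enriched on magnetic beads for CD11b, a surface protein of microglia and macrophages. The control mice were raised in room air. The mice with oxygen-induced retinopathy (OIR), a model of vessel loss and regrowth, had been kept with their mother in 75% oxygen from day 7 to day 12 and then returned to room air. There was 1 library per group, so no difference between groups has a replicate check, no test was run, and every interval below covers counting error only.

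In the dark, cyclic GMP holds cation channels of the outer segment open. A light-activated opsin switches on the G protein transducin, transducin releases the phosphodiesterase PDE6 from its inhibitory subunit, cyclic GMP falls and the channels close. An arrestin, an opsin kinase and the GTPase activator RGS9 then end the response, and guanylate cyclases with their calcium-sensing activators restore cyclic GMP. Rods and cones use the same scheme with separate copies of most of its genes, which is why the set can be read as rod forms, cone forms and shared genes.

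The control library held 50081145 UMIs over 10826 barcodes and the OIR library 49773742 UMIs over 7283, and the 34 genes made up 6.26% and 4.92% of them. After filtering, 8585 control cells (median 1648 UMIs) and 6132 OIR cells (median 2828.5) remained. Cells were clustered with the 34 genes left out and named by other markers. Rod-like clusters held 6697 control and 3612 OIR cells with median depths of 1403 and 1493.5 UMIs. A single cone-like cluster held 249 and 530 cells with 11217 and 10132 UMIs. The libraries had 89 barcodes in common, 30 of them among the cells kept in both, and leaving these out changed no count of genes given below. The bead enrichment and the differing depths can set these cell numbers, so the shares of cell types are not compared.

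The names rest on markers outside the set, so the marker sums describe the classes and are no separate check. In rod-like cells all 9 rod markers were present and summed to 11734 CPM (UMIs scaled to a total of 1000000 per class) in the control and 12474 CPM in the OIR library. The 8 cone markers summed to 1657 and 2351 CPM in cone-like cells. They summed to 798 and 799 CPM in rod-like cells, where Pex5l alone gave 667 and 600 CPM. Pex5l was lower in cone-like cells, at 386 and 376 CPM. The cone-like cells also held rod markers at 7455 and 6775 CPM, and none of the 9 was at 0. Rod RNA in cone-like cells is therefore given beside the cone values, and its part in them was not tested. In GENCODE, Opn1sw, Opn1mw, Rcvrn, Pde6h, Gngt2, Gnb1, Pde6a, Pdc and Abca4 overlap a gene on the opposite strand, Cnga1, Pdc and Cngb3 overlap one on the same strand, and whether counting used strand is not stated in the sources used here.

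Short stretches upstream of the genes are shown for the rod and cone forms with the highest level in their cell whose upstream sequence held a searched motif. In capitals is TAATCC, a core to which CRX-type homeodomain factors bind, or TGCTGA, a half-site of MAF-type factors such as NRL, or the reverse complement of either. CRX serves both photoreceptors and NRL is a rod factor. The sequences are from RefSeq (GRCm38.p6), read 5′ to 3′ on the strand of the gene:
Gngt1, chr6:3993952-3993981, plus strand: tcatattaggggGGATTAtgaagaagcttt
Cnga1, chr5:72642963-72642992, minus strand: agtgtctcatttTAATCCtaatgataaact
Pde6b, chr5:108388343-108388372, plus strand: taatcatcactaagaaagacttTGCTGAca
Opn1sw, chr6:29380695-29380724, minus strand: aaagaatataggTCAGCAtcctccaggcca
Gnat2, chr3:108093035-108093064, plus strand: gggacaatccccGGATTAggaaggagctct

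The Gngt1 stretch overlaps exons of protein-coding and retained-intron GENCODE transcripts of its gene. The Gnat2 stretch overlaps an exon of a protein-coding transcript and the Cnga1 stretch one of a retained-intron transcript. The stretches of Pde6b and Opn1sw overlap no annotated exon of their gene. Of the 34 genes, 25 had a promoter entry. Within 250 bases upstream, on both strands, TAATCC occurred in 9 of these 25 genes (36%) and in 7.21% of all 27025 genes with an entry. TGCTGA occurred in 5 of the 25 (20%) and in 18% of all genes. Both motifs occurred upstream of Sag. A match describes the letters only.

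Each cone form was set against its rod copy first, since the pairs show how sharply the cell types were resolved. In the control library the cone transducin alpha gene Gnat2 stood at 1200 CPM in cone-like and 17.7 CPM in rod-like cells, a 67.7-fold difference. The cone PDE6 inhibitory subunit Pde6h stood at 6482 and 106 CPM (61.4-fold), the cone transducin gamma Gngt2 at 3332 and 57.0 CPM (58.4-fold), the catalytic Pde6c at 549 and 11.6 CPM (47.5-fold) and the cone arrestin Arr3 at 772 and 21.1 CPM (36.6-fold). The cone transducin beta Gnb3 was the least separated of the 11 cone forms, at 1708 and 112 CPM (15.2-fold). In the OIR library the same ratios were smaller, at 25.3-fold for Gnat2, 21.5-fold for Pde6h and 3.98-fold for Gnb3. All of these are levels of 1 gene in different cells. UMI counts are not scaled to gene length, so levels of different genes are not compared beyond the choice of the upstream stretches shown.

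Rod forms were far less separated in the other direction. In control cone-like cells the 9 rod forms stood at 55.4% to 87.4% of their rod-like level, with a median of 67.4%. In the OIR library the range was 49.7% to 100.4% and the median 61.2%. The rod transducin gamma Gngt1, for example, gave 10562 CPM in control cone-like cells and 12463 CPM in control rod-like cells. The rod inhibitory subunit Pde6g gave 6434 and 7365 CPM.

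Among the shared genes Guca1a, which encodes the guanylate cyclase activator GCAP1, was the only one more than 1.5-fold higher in cone-like than in rod-like cells. It stood at 2717 CPM in cone-like and 957 CPM in rod-like control cells, and at 3041 and 746 CPM in OIR cells. Its neighbour Guca1b, which encodes GCAP2 and lies next to it on chromosome 17, had the opposite order, at 876 CPM in cone-like and 1587 CPM in rod-like control cells. Rgs9 was level, at 525 and 524 CPM. The retinal cyclases Gucy2e and Gucy2f had 316 and 45.6 CPM in control cone-like cells and 355 and 77.6 CPM in rod-like cells.

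**Figure D1:**
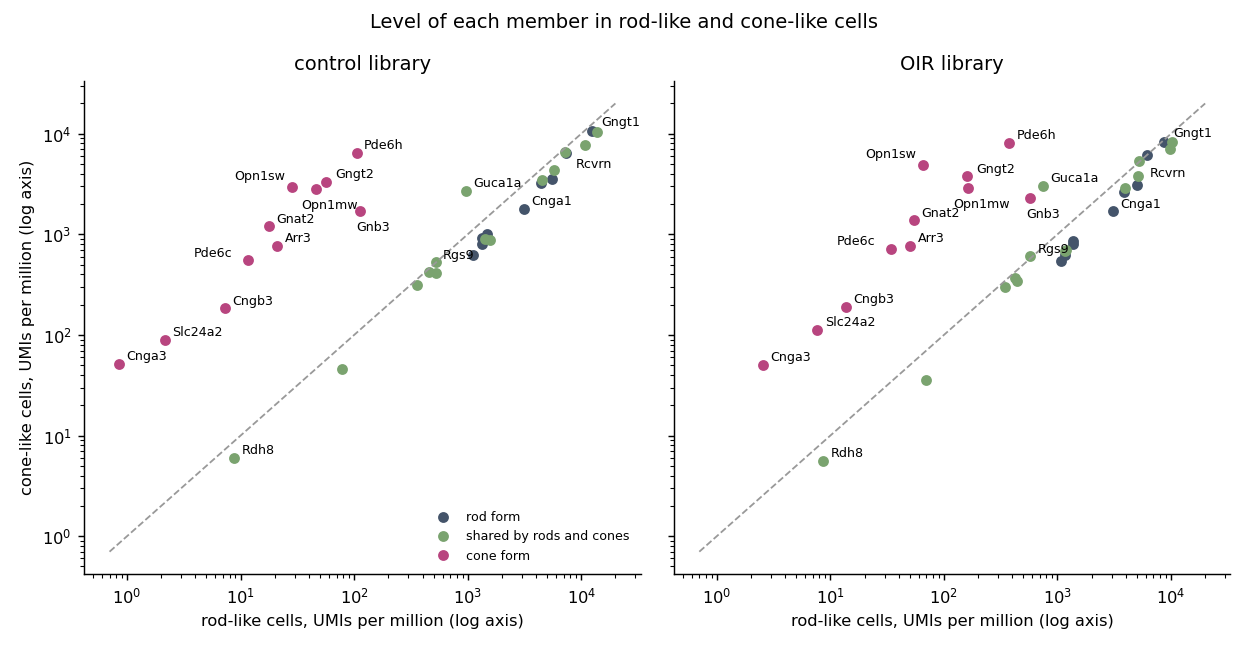
CPM of each of the 34 genes in rod-like cells (x axis, log scale) and cone-like cells (y axis, log scale) for the control (left) and OIR (right) library, coloured by form, with a dashed line of equal level. The 11 cone forms lie above the line in both libraries, Guca1a is the shared gene farthest above it, and the cone forms sit closer to the line in OIR, with Gnb3 moving from 112 to 571 CPM in rod-like cells.

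In the summed UMIs of rod-like cells no rod form or shared gene differed between the libraries by as much as 1.5-fold. That limit was used here together with a level of at least 20 CPM in a library. All 9 rod forms and 13 of the 14 shared genes reached that level, and none of these 22 was called in either direction. Over the 6582 genes measured in rod-like cells, 4.36% passed the limit upward in OIR and 1.34% downward, or 5.7% in all. The direction was mostly downward. On the log2 scale 8 of 9 rod forms lay below 0 with a median of -0.12, and 12 of 13 shared genes lay below 0 with a median of -0.20. All 6582 genes had a median of 0.06, and 2722 of them lay below 0.

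The lowest of the rod forms was Gngt1 (chromosome 6, 3993792 to 3997436), which tethers the rod transducin beta-gamma pair to the membrane. It gave 12463 CPM in the control and 8752 CPM in the OIR library, a log2 ratio of -0.51 (95% counting interval -0.52 to -0.50). The other transducin subunits moved less. Gnat1, the alpha subunit, went from 4449 to 3880 CPM (log2 -0.20), and Gnb1, the beta subunit, from 5513 to 5064 CPM (log2 -0.12). Gngt1 was thus the subunit whose level differed most between the libraries.

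PDE6 gave the same picture with smaller differences. Pde6g, the inhibitory subunit, went from 7365 to 6087 CPM (log2 -0.28). The catalytic Pde6a went from 1342 to 1159 CPM (log2 -0.21) and Pde6b from 1492 to 1380 CPM (log2 -0.11). The rod channel and exchanger genes were nearly level. Cnga1 stood at 3160 and 3066 CPM, Cngb1 at 1116 and 1082 CPM, and Slc24a1, which exports calcium in exchange for sodium and potassium, at 1347 and 1366 CPM.

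Among the genes that shut the response off or regulate this step, Rcvrn had the lowest ratio. It encodes recoverin, the calcium-dependent brake on the opsin kinase, and went from 7224 to 5258 CPM (log2 -0.46, interval -0.47 to -0.44). Sag, the rod arrestin gene, went from 13766 to 10270 CPM (log2 -0.42), and the kinase gene Grk1 from 521 to 444 CPM (log2 -0.23). Pdc, whose product phosducin binds transducin beta-gamma, went from 10889 to 9786 CPM (log2 -0.15). Rgs9 went the other way, from 524 to 578 CPM (log2 0.14, interval 0.09 to 0.19).

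The calcium feedback genes Guca1b (1587 and 1175 CPM, log2 -0.43) and Guca1a (957 and 746 CPM, log2 -0.36) were lower in OIR, and the cyclases they act on were closer to level, at log2 -0.04 for Gucy2e and -0.17 for Gucy2f. The retinoid handling genes Rdh12 and Abca4 gave -0.24 and -0.12. Rdh8 stayed under 10 CPM in both libraries. The disc rim genes Rom1 and Prph2, which shape the outer segment membrane, gave -0.18 and -0.20. For these genes the libraries differed by less than 1.5-fold in summed UMIs. With each cell counted equally Guca1a passed that limit (log2 -0.65).

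Rod-like cells fell into 10 clusters, of which 9 had at least 20 cells in each library, and the direction was compared inside each. Gngt1 was lower in OIR in 9 of 9 clusters, with log2 ratios from -0.95 to -0.14 and a median of -0.81. Rcvrn was lower in 9 of 9, from -0.98 to -0.17 with a median of -0.82. Sag, Pde6g and Rom1 were also lower in 9 of 9, with medians of -0.36, -0.44 and -0.23. Rgs9 was higher in 9 of 9, from 0.02 to 0.59, but its counting interval spanned 0 in 6 of them. The interval spanned 0 in 1 cluster each for Sag and Rom1, and in 0 for Gngt1, Rcvrn and Pde6g. The clusters are groups of cells of the same 2 libraries and are not replicates. How many of all genes had 1 direction in every cluster is not given here.

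The size of the Gngt1 and Rcvrn differences depended on how deep cells were weighted. Summed UMIs follow the deepest cells. When each cell counted equally, Gngt1 gave 10213 CPM in the control and 6154 CPM in the OIR library (log2 -0.73), Rcvrn gave -0.70 and Guca1a -0.65, and these 3 genes then passed the limit downward. After each cell was thinned to 1000 UMIs the 3 values were -0.71, -0.66 and -0.63. The shares of all genes past the limit under these weightings are not given here, so the count is not read as a result.

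**Figure D2:**
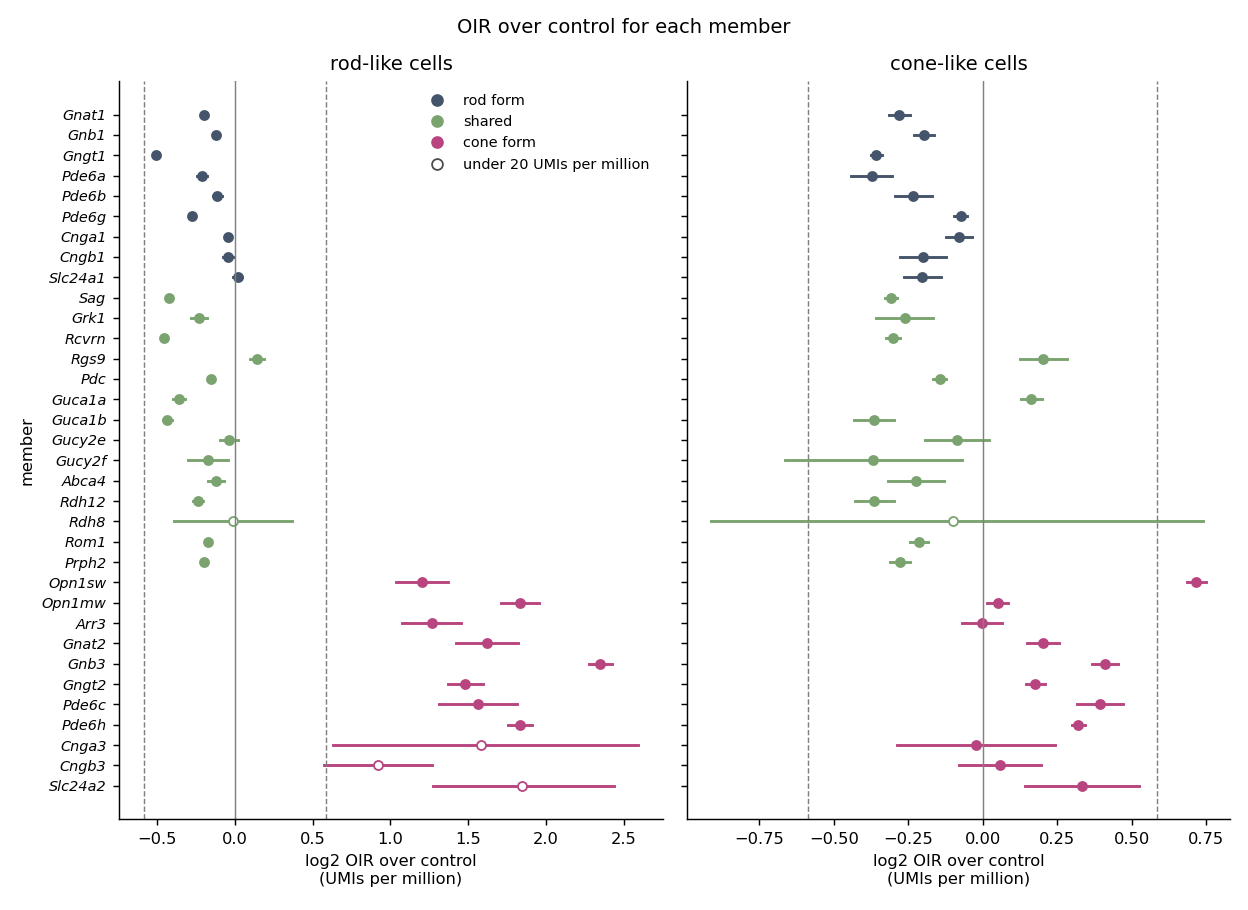
Log2 ratio of OIR over control for each of the 34 genes in rod-like cells (left) and cone-like cells (right); points are ratios of CPM, bars 95% counting intervals, dashed lines the 1.5-fold limit, and open points genes under 20 CPM in both libraries. In rod-like cells the rod forms and shared genes lie between -0.51 and 0.14 where measured and the cone forms lie to the right of the limit, while in cone-like cells only Opn1sw passes it.

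Cone-form genes were higher in the OIR rod-like cells. Of the 11, 8 reached 20 CPM in at least 1 library, and these 8 were all at least 1.5-fold higher in OIR, while 0 were lower. Over all genes measured in rod-like cells 4.36% were higher and 1.34% lower. Gnat2 and Pde6c reached 20 CPM only in the OIR library, so they were measured only through the library in which they were high. Gnb3 (chromosome 6, 124834240 to 124840275) went from 112 CPM to 571 CPM, a 5.09-fold difference (log2 2.35, interval 2.28 to 2.42). Pde6h went from 106 to 376 CPM (log2 1.83) and Opn1mw, the middle-wavelength cone opsin gene, from 45.6 to 162 CPM (log2 1.83). Gnb3 had the largest ratio of the 8.

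The other measured cone forms were higher as well. Gnat2 went from 17.7 to 54.5 CPM, Pde6c from 11.6 to 34.1 CPM, Gngt2 from 57.0 to 159 CPM, Arr3 from 21.1 to 50.7 CPM and the short-wavelength opsin gene Opn1sw from 28.5 to 65.6 CPM. The cone channel subunits Cnga3 and Cngb3 and the exchanger Slc24a2 were under 20 CPM in both, at 0.846 and 2.53, 7.28 and 13.8, and 2.14 and 7.69 CPM. Cone-like cells made up 9.57% of the UMIs of the control cells and 14.6% of those of the OIR cells, and the part that RNA released from cones plays in these levels was not tested.

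Most of this cone-form RNA sat in 1 rod-like cluster. Its leading genes included Fgf2 and Edn2, secreted factors known to be induced in stressed photoreceptors, at 249 and 78.4 CPM in its OIR cells. It held 36 control and 1153 OIR cells, so 97.0% of it came from the OIR library, and a cell state and the library cannot be told apart there. Its 36 control cells carried the cone forms as well, with 1139 CPM of Gnb3 and 1531 CPM of Pde6h, against 1027 and 761 CPM in its 1153 OIR cells. With that cluster left out, 4 of the 8 genes stayed past the limit upward, against 2.74% of all genes measured in these cells. These were Gnb3 (98.3 and 281 CPM, log2 1.52), Opn1sw (27.2 and 59.5 CPM, log2 1.13), Arr3 (18.8 and 30.1 CPM, log2 0.68) and Pde6h (86.5 and 131 CPM, log2 0.60). Arr3 was then under 20 CPM in the control, so it was measured only through the OIR library. Opn1mw dropped to 48.0 CPM in OIR against 41.2 CPM in the control (log2 0.22).

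Within that cluster the cells richest in cone-form RNA were set apart. The cells in question were those with more than 1% of their UMIs from the 10 cone forms other than Gnb3. There were 22 of them among the 1153 OIR cells, with a median of 13172 UMIs against 1778 in the rest. They held 47.9% of the UMIs of the 10 genes in the cluster and 16.5% of its Gnb3 UMIs. The first share follows from how the cells were picked and is not compared with the Gnb3 share. Without these cells the Gnb3 level of the cluster was 916 CPM. A limit on a continuous share is not a cell type, and 33 of the cells lay within 50% of it on either side.

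Gnb3 differed in the other rod clusters as well. It was higher in OIR in 8 of the 9 clusters, with a median log2 ratio of 1.90 and a highest ratio of 2.54. The exception was the Fgf2 and Edn2 cluster at -0.15. In the other 8 clusters control levels lay between 48.5 and 139 CPM and OIR levels between 205 and 426 CPM. Opn1sw was higher in the same number of clusters, with a median log2 ratio of 1.73 and at most 113 CPM. Pde6h, Gngt2, Gnat2 and Arr3 were also higher in 8 of 9, with medians of 0.55, 0.54, 0.56 and 0.59. Opn1mw was higher in 6 of 9 and Pde6c in 5 of 9, with medians of 0.57 and 0.27. Many of these ratios rest on few UMIs. The counting interval spanned 0 in 9 of 9 clusters for Opn1mw, 7 for Pde6c and Gnat2, 6 for Gngt2, 5 for Arr3 and 4 for Pde6h.

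Some cone forms were also higher in OIR in classes that are not photoreceptors, for which no share over all genes is given. In microglia-like cells Gnb3 went from 9.73 to 67.1 CPM (6.90-fold), Opn1sw from 7.45 to 43.0 CPM (5.77-fold) and Pde6h from 12.8 to 40.1 CPM (3.14-fold). Gngt2 stayed under the limit there (1.35-fold). The rod forms were all higher in these cells too, from 1.58-fold for Gngt1 to 2.75-fold for Cnga1. In bipolar-like cells Opn1sw went from 36.7 to 125 CPM (3.41-fold) and Pde6h from 74.5 to 213 CPM (2.86-fold), and Gnb3 was near level (1.07-fold). Other cone forms went down there, Cngb3 from 44.2 to 27.8 CPM and Slc24a2 from 29.2 to 18.4 CPM (both 0.63-fold), and Gnat2 was at 0.81-fold. In Müller glia-like cells Opn1sw went from 347 to 896 CPM (2.58-fold), Gnb3 from 279 to 562 CPM (2.01-fold) and Pde6h from 938 to 1435 CPM (1.53-fold), and Opn1mw was level (1.02-fold). Arr3 and Cngb3 were near level as well (1.09-fold and 1.02-fold). The part of the cone-form RNA of these classes in the rod-like differences was not tested.

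The share of rod-like cells with a Gnb3 UMI had the same direction. At 1000 UMIs per cell it was 400 of 5881 control cells, or 6.80% (exact 95% binomial interval 6.17% to 7.48%), and 1016 of 3126 OIR cells, or 32.5% (30.9% to 34.2%). Without thinning the shares were 14.1% and 49.8%. Microglia-like cells, which should lack the gene, had 1.69% (0.929% to 2.82%) and 3.97% (2.29% to 6.37%) at the same 1000 UMIs; their own median depths were 6574 and 3124 UMIs. Thinning left out 816 control and 486 OIR rod-like cells that were too shallow. Without the Fgf2 and Edn2 cluster the shares in rod-like cells were 6.46% and 22.9%. For Pde6h they were 4.52% and 9.37% in all rod-like cells, and microglia-like cells gave 1.93% and 5.96%.

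**Figure D3:**
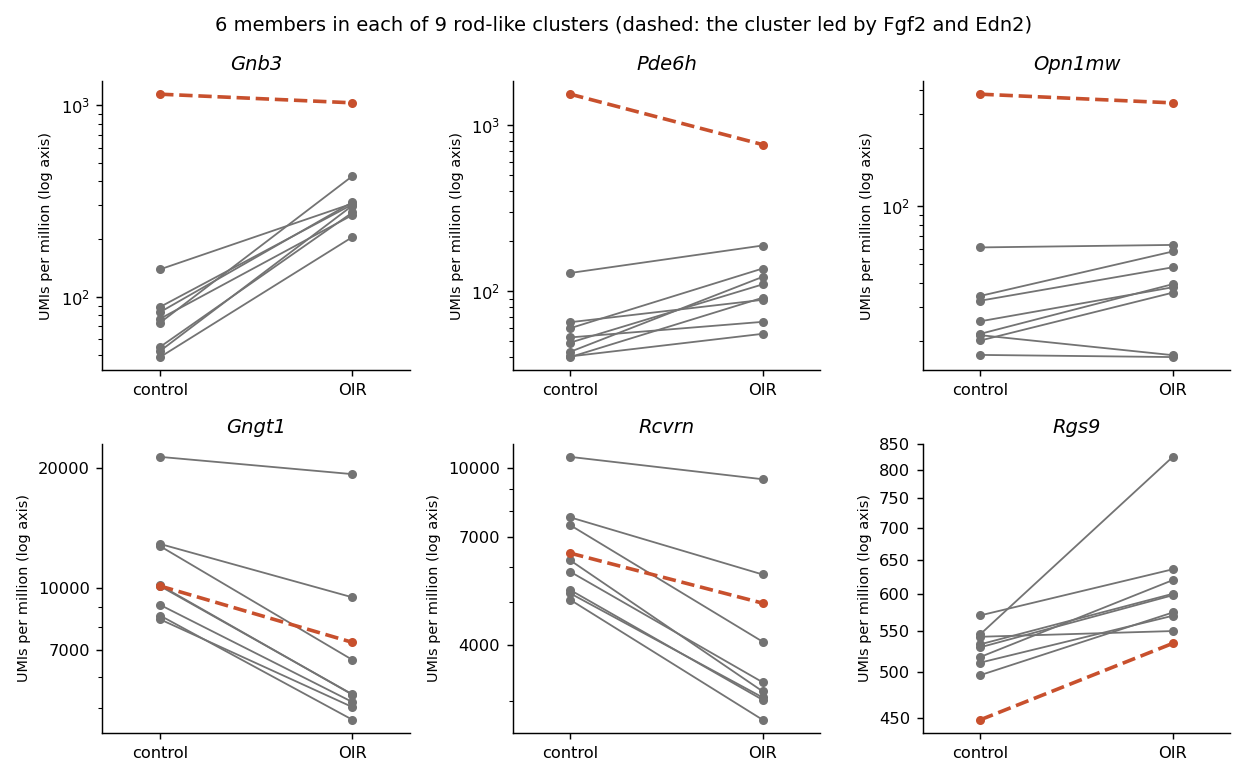
CPM (log axes) of 6 genes in each of the 9 rod-like clusters with at least 20 cells in each library, 1 line per cluster from control to OIR; the dashed line is the cluster led by Fgf2 and Edn2, which has 36 control and 1153 OIR cells. Gnb3 climbs in the other 8 clusters to between 205 and 426 CPM, and Gngt1 and Rcvrn drop in all 9. Rgs9 is higher in all 9, with a counting interval that spans 0 in 6.

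In cone-like cells 33 of the 34 genes were measured. Only Opn1sw passed the limit, and none passed it downward; of 6477 genes measured in these cells 2.42% were higher and 1.78% lower, or 4.2% in all. Opn1sw (chromosome 6, 29376671 to 29388468) went from 2972 to 4888 CPM, 1.64-fold (log2 0.72, interval 0.69 to 0.75). Opn1mw stayed level at 2801 and 2902 CPM (log2 0.05). The Opn1sw difference fell under the limit when cells were weighted equally, when they were thinned to 1000 UMIs or when a stricter cell filter left 37 control and 121 OIR cone-like cells, and its log2 ratio ranged from 0.28 to 0.87 over all alternatives. Barcodes that failed the filter, 1372 control and 767 OIR, held 6758843 and 2669014 UMIs. Cone forms made up 1.29% and 1.18% of these. The cone-like cells held 3682422 and 6282590 UMIs, of which cone forms made up 2.01% and 2.52%. The filter thus also removed cone-form RNA, and its part in the cone-like ratios was not tested.

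Of all 11 cone forms in cone-like cells, Opn1sw included, 9 lay above 0, with a median log2 ratio of 0.20 against -0.01 for all genes. Those other than Opn1sw stayed under the limit. Gnb3 went from 1708 to 2272 CPM (log2 0.41), Pde6c from 549 to 722 CPM (log2 0.39), Slc24a2 from 89.3 to 113 CPM (log2 0.33) and Pde6h from 6482 to 8095 CPM (log2 0.32). Gnat2 and Gngt2 gave 0.20 and 0.18. Arr3, Cnga3 and Cngb3 lay within 0.06 of 0. The rod forms in the same cells were lower in 9 of 9 (median -0.20), as most were in rod-like cells. Of all 6477 genes measured in cone-like cells, 3084 lay above 0 and 3393 below.

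Shared genes in cone-like cells went down in 11 of 13, with a median of -0.26, against 3393 of all 6477 genes. The exceptions were Rgs9, from 525 to 605 CPM (log2 0.20), and Guca1a, from 2717 to 3041 CPM (log2 0.16, interval 0.13 to 0.20). Guca1a therefore had opposite directions in rod-like and cone-like cells, and the difference between them was not tested.

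The mix of both cone opsins in single cells differed between the libraries. Mouse cones can carry both opsins, with Opn1sw rich in ventral and Opn1mw in dorsal retina. Opn1mw made up 48.5% (47.8% to 49.2%) of opsin UMIs in control and 37.3% (36.8% to 37.7%) in OIR cone-like cells. At 1000 UMIs per cell, 85 of 248 control cells (34.3%) and 261 of 527 OIR cells (49.5%) had at least 1 UMI of both. Cells with Opn1mw only were 103 (41.5%) and 145 (27.5%), and cells with Opn1sw only were 48 (19.4%) and 112 (21.3%). The OIR library thus had more cells with both opsins and fewer with Opn1mw alone, and a like share with Opn1sw alone.

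The same held for each cell's own mix. Among cells with at least 10 opsin UMIs, the median share of Opn1mw was 69.4% over 246 control cells and 36% over 521 OIR cells. Cells with at least 90% Opn1mw made up 44.7% of control and 28.0% of OIR cells, and cells with at most 10% made up 18.3% and 18.8%. The part of the retina that the cells came from was not recorded in the labels, so a change within cones and a different sampling of dorsal and ventral cones cannot be told apart. Opn1sw was also higher in OIR in rod-like (2.30-fold), bipolar-like (3.41-fold), Müller glia-like (2.58-fold) and microglia-like cells (5.77-fold). Opn1mw was higher in rod-like (3.56-fold) and bipolar-like cells (1.81-fold) and level in Müller glia-like cells (1.02-fold). The part of RNA from other cells in the opsin mix of cone-like cells was not tested, nor was that of cone RNA removed by the filter.

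**Figure D4:**
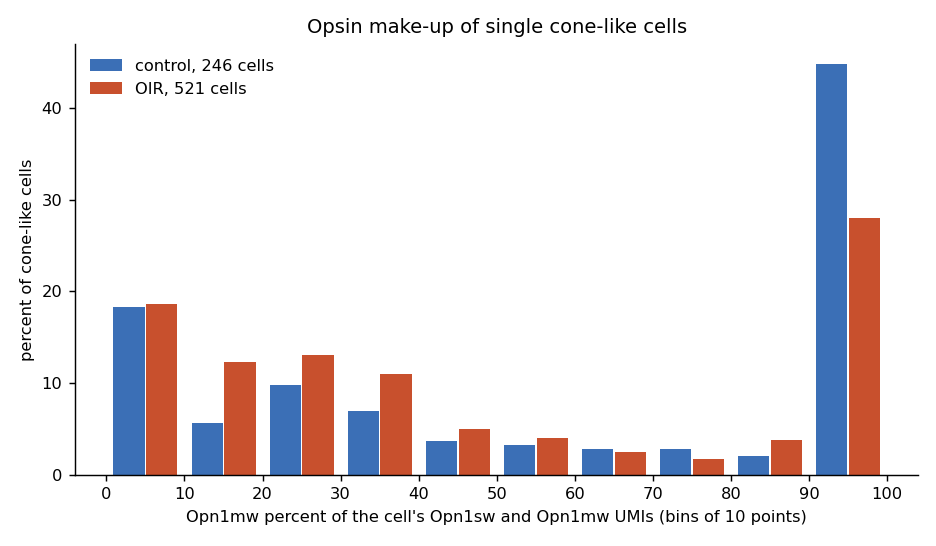
Percent of cone-like cells (y axis) by the share of Opn1mw in the cell's opsin UMIs (x axis, bins of 10 points) for 246 control and 521 OIR cells with at least 10 opsin UMIs. The bin nearest Opn1mw alone holds 44.7% of control and 28.0% of OIR cells, and the bin nearest Opn1sw alone holds close to the same share in both.

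Outside photoreceptors RNA of the 9 rod forms was found in every class. RNA released by photoreceptors and caught in other droplets, and cells captured together, cannot be told apart here from a gene's own expression at a low level. In microglia-like cells, the target of the enrichment, the rod forms had a median of 3.93% of their rod-like level in the control and 9.10% in the OIR library. Gnb1 was the highest of the 9, at 6.69% and 12.1%. It gave 2425 of the 11026 control and 1274 of the 6246 OIR rod-form UMIs in these cells, and its own expression there was not tested. Together the 9 rod forms made up 0.168% and 0.302% of microglia-like UMIs. The order turned with doublets kept, to 0.382% and 0.287%, and the shares were 0.149% and 0.146% at a clustering resolution of 0.5. This difference also depended on which microglia-like cells were counted. The cluster led by P2ry12 and Tmem119 had 0.146% and 0.196%, and the shallower cluster led by Aif1 had 0.555% and 0.471%. The shallower cluster held 160 of 833 control and 285 of 419 OIR microglia-like cells.

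Bipolar-like cells had rod forms at a median of 14% and 12.5% of the rod-like level, and Müller glia-like cells at 70.7% and 76.1%. Müller glia-like cells were also deep, with medians of 9886 and 15394 UMIs. Whether cells captured together remained among them after the removal of doublets was not tested. In the larger Müller glia-like cluster, cone forms made up 0.0412% of UMIs in the control and 0.326% in the OIR library. In OIR, 26 of its 452 cells had more than 1% of UMIs from the 10 cone forms other than Gnb3 and held 43.7% of them. That share follows from how these cells were picked.

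A few genes stood well above a predicted level. This is the gene's level in its own photoreceptor, rod-like for rod forms and shared genes and cone-like for cone forms, times the median percent of the rod forms in that class. Gnb3 stood at 1552 and 1654 CPM in bipolar-like cells, 90.9% and 72.8% of its cone-like level, and ON bipolar cells are known to use this beta subunit in their own glutamate receptor cascade. The pigment epithelium-like cells, 28 control and 44 OIR, held Slc24a1 at 524 and 634 CPM and Abca4 at 293 and 213 CPM. Amacrine-like cells, 23 and 21, held Slc24a2 at 62.9 and 144 CPM. Each stood out in both libraries, the pigment epithelium-like and amacrine-like values over few cells.

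Some cone forms under 3 times that level were picked out after their values were seen. In bipolar-like cells Slc24a2 stood at 32.7% and 16.4% of its cone-like level, Cngb3 at 24% and 14.5% and Gngt2 at 13.2% and 11.9%, against cone-form medians of 1.75% and 3.43%. Gngt2 in microglia-like cells stood at 240 CPM in the control and 324 CPM in the OIR library, 7.19% and 8.60% of its cone-like level, while the cone forms there had medians of 0.266% and 0.757%. In GENCODE Gngt2 overlaps Abi3 on the opposite strand, and reads of the pair cannot be told apart if counting ignored strand.

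**Figure D5:**
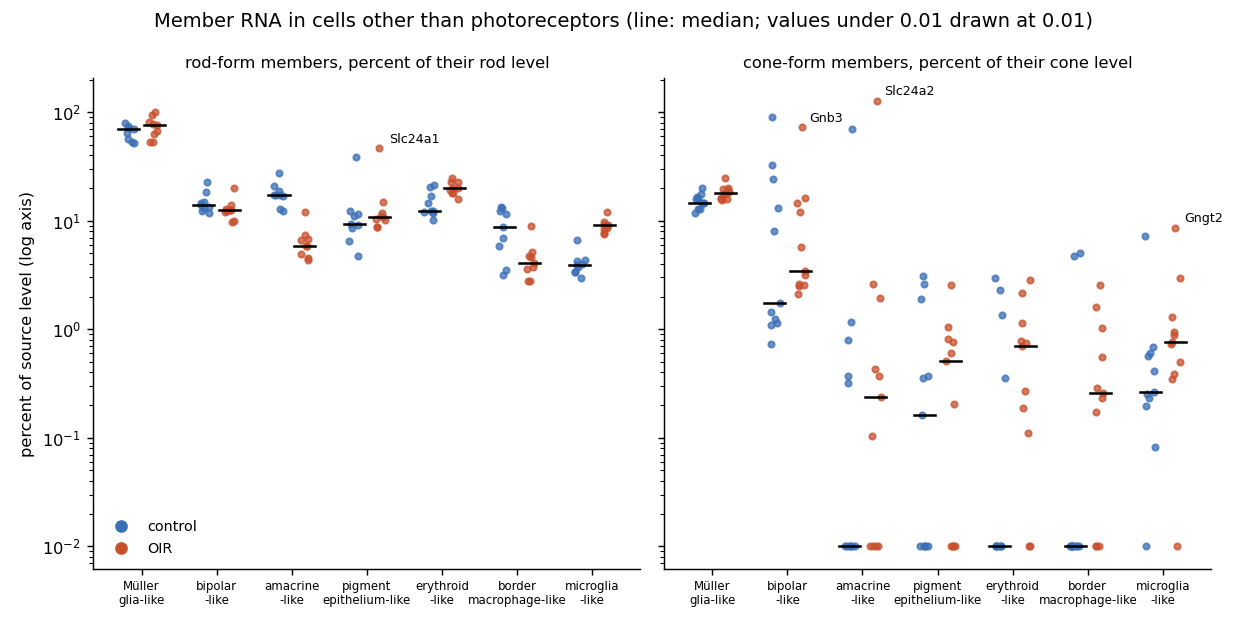
Level of the 9 rod forms as percent of their rod-like level (left) and of the 11 cone forms as percent of their cone-like level (right) in 7 other classes, 1 point per gene and library, log axis, with the median as a line. Rod-form medians run from 3.93% in control microglia-like to 76.1% in OIR Müller glia-like cells, with Slc24a1 above the other rod forms in pigment epithelium-like cells; Gnb3 in bipolar-like, Slc24a2 in amacrine-like and Gngt2 in microglia-like cells are among the cone forms above their class median.

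Genes around the cascade were read from lists chosen for function. Of 16 cascade support genes (chaperones, trafficking factors and calmodulins), 15 were measured in rod-like cells, 0 were higher and 1 was lower, against 4.36% higher and 1.34% lower over all genes; the median log2 ratio was -0.12. The lower gene was Rd3, an inhibitor of the retinal guanylate cyclases that also carries them to the outer segment, at 367 and 233 CPM (log2 -0.66). It was lower in cone-like cells too, at 379 and 237 CPM (log2 -0.68). Of 12 retinoid cycle genes 5 were measured in rod-like cells, and Rdh11, a retinol dehydrogenase gene, was lower at 45.0 and 25.7 CPM (log2 -0.81).

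Of 23 other photoreceptor genes all were measured in rod-like cells, 1 was higher and 1 lower, with a median of 0.02 against 0.06 over all genes. None of these list counts is read as a result about the list. Samd7, a rod gene silencing factor that was also among the markers used to name rods, went from 371 to 795 CPM (log2 1.10), and from 256 to 389 CPM in cone-like cells (log2 0.60). Nxnl1, which encodes the rod-derived cone viability factor, went from 657 to 429 CPM (log2 -0.61). The transcription factors Crx, Nrl and Nr2e3 stayed within the limit, at log2 0.16, -0.24 and 0.37.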

How the data were processed

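The deposited matrices hold UMI counts per gene and droplet barcode for 2 libraries; per the submitters' processing notes the authors used Cell Ranger 3.0.2 and mm10. For alignment settings and annotation, nothing is given in the sources used here. The members and lists were chosen with earlier results of these data known.

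Barcodes needed 500 or more genes and no more than 10% mitochondrial UMIs, which left 9454 control and 6516 OIR. Scrublet's own threshold called 1 and 0 doublets, so the highest scores were removed at 0.8% per 1000 cells, 869 and 384. Cells were clustered (scanpy 1.11.5, Leiden, resolution 1) on 2000 variable genes less the 9 members among them. The 24 clusters were named from non-member markers. The scoring rule, with at least 50% of a class's markers detected, was set after a first look, because rods are most cells and hid their own markers; 2 mixed clusters stayed unnamed.

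UMIs were summed per class and library and given as CPM. Ratios carry exact conditional binomial 95% intervals and shares exact binomial (Clopper-Pearson) ones. A gene was called at 1.5-fold with at least 20 CPM in 1 library. Data were also simulated from the summed control rod-like cells, with counting error only and a higher CPM floor. In these, 50 of 50 genes at 2-fold, 1 of 50 at 0.8-fold and 0 of 4734 unchanged genes were called. The simulation held no differences between cells or libraries, so it does not show how often calls between unreplicated libraries are wrong. All members are named; values are given for members past the limit, for paralog pairs and for those described by role, and outside photoreceptors for members at least 3 times the level that the rod forms predict. Alternatives changed the scaling, cell weights, depth, filter, doublet removal and clustering. No protein sequence is shown. Positions are from GENCODE (GRCm38).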

Additional observations from a re-analysis of the deposited data

Results flagged for a closer look

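Guca1a, the gene of the guanylate cyclase activator GCAP1, had opposite directions in the photoreceptor types. In rod-like cells its log2 ratio of OIR over control was -0.36 (957 and 746 CPM), and in cone-like cells it was 0.16 (2717 and 3041 CPM). What drew attention was the sign. There was 1 library per group, so the difference between the cell types was not tested. By cluster of rod-like cells it lay below 0 in 8 of 9, from -0.75 upward with a median of -0.37, and near level in one of these. It was 0.19 (interval -0.07 to 0.45) in the cluster led by Fgf2 and Edn2, which held 1153 OIR cells. Over all rod-like cells the ratio stayed below 0 under each of 15 alternatives (-0.65 to -0.23). In cone-like cells it ran from -0.03 to 0.29 under 12 alternatives.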

How the results depend on the processing

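No paired analysis was possible because each group has 1 library, and no replicate could be left out. The count of genes at least 1.5-fold higher in rod-like cells, 8 in the main analysis, was 4 without the cluster that came over 90% from 1 library. It was 3 when cells over 1% cone-form UMIs were left out as well, an alternative chosen after seeing the data, as were leaving out such cells alone and leaving out shared barcodes. The count lower, 0 in the main analysis, was 3 with cells weighted equally and 3 after thinning to 1000 UMIs. In cone-like cells the count higher, 1 in the main analysis, was 0 with equal weights, 0 after thinning and 0 with at least 800 genes and at most 5% mitochondrial UMIs, and 2 with the 34 genes kept for clustering. Leaving out a cluster from 1 library could not be done for cones. Shares over all genes are not given for the counts under alternatives, except 2.74% higher in rod-like cells without that cluster. The Opn1mw share of opsin UMIs was 45.3% in the control after thinning, 36.2% and 30.4% (control and OIR) under the stricter filter, 49.3% and 38.4% with doublets kept, and 49.9% and 38.8% with the 34 genes kept, and the control was the higher each time. The rod-form share of microglia-like UMIs was 0.151% and 0.294% under the stricter filter, 0.382% and 0.287% with doublets kept, and 0.149% and 0.146% at resolution 0.5, so its order was not stable; the cause was not tested. The share of rod-like cells with a Gnb3 UMI was 3.57% and 21.2% at 500 UMIs, 11.0% and 44.3% at 1500 and 14.1% and 49.8% unthinned, which follows from depth. The number of control cells called rod-like was 4848 with doublets kept, 4883 with the 34 genes kept and 3131 under the stricter filter, as clusters lost the name or cells the filter. Of the values for single genes, 533 moved by less than their counting interval and 313 by more, and none that had been called changed sign.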
